A study of Homo sapiens with 6 samples.

Results

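The laminin and integrin genes were examined in H23, an established line of human lung adenocarcinoma, given either control siRNA or an siRNA specific for HOTAIR-N. HOTAIR is a long non-coding RNA, and the series title calls the treatment HOTAIR RNAi. Members were all rows of the gene tables with a laminin alpha, beta or gamma chain symbol or an integrin alpha or beta symbol of the set form, which gave 37 of 27968 genes, 12 laminin and 25 integrin genes. ITGA2B, the partner of ITGB3 in platelets, falls outside that form. All cells were grown in RPMI medium with serum and transfected with RNAiMAX, and RNA was taken 48 hours later. Each group had 3 libraries, from separate transfections of this single cell line per the series' design text.

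Laminins are cross-shaped proteins of the basement membrane, each built from an alpha, a beta and a gamma chain that are assembled inside the cell before secretion. Integrins are receptors of an alpha and a beta subunit that link the matrix to the cytoskeleton. In epithelia, the integrins made of alpha3 or alpha6 with beta1, and alpha6 with beta4, are the main laminin receptors, while other alpha subunits direct beta1 to collagens or to fibronectin, and alphaV pairs with several beta subunits.

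The sequences shown first are places where a short word recurs in the members. The word GACCAAT in 3' untranslated regions (UTRs) was picked in earlier work on these same libraries for going with lower expression, so its direction here is no independent evidence. In the longest 3' UTR of each gene in GENCODE release 29, the word was found in 860 of 13301 searched genes (6.47%), whose median log2 fold change was -0.33, against 0.01 for the 12441 genes without it. All 37 members were searched, and 3 had the word, among them ITGA3 with 3 copies and LAMC3 with 1 copy. Their sites are written 5′ to 3′ with the word in capitals.
ITGA3 site 1: gcagactcggGACCAATactactgacg
ITGA3 site 2: gagaggagggGACCAATtctggacaga
ITGA3 site 3: ttctcacggcGACCAATaaacagctcc
LAMC3 site 1: cagcagcacaGACCAATtccgttgaac
ITGA3 and LAMC3 fell, as given with their values, and the third did not pass the test. Of the 28 tested members without the word, 15 rose and 5 fell, where 3719 of the 12441 genes without it rose and 3568 fell. The word's part in these differences was not tested.

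HOTAIR itself was lower in every library given HOTAIR-N siRNA, with 169, 148 and 202 expected counts in the control libraries and 88, 74 and 82 after HOTAIR-N siRNA (log2 fold change -1.04, SE 0.14, edgeR quasi-likelihood test, adjusted p = 1.32e-05). Libraries held 32715361 to 36578681 expected counts (reads assigned to genes by RSEM). Correlations of log2 CPM (counts scaled to library size) were 0.994 or higher within groups and at most 0.977 between them. Control replicate 1 differed most from its group. The epithelial markers KRT8 and KRT18 were abundant, with 1505 and 2592 TPM in control cells, and the summed TPM of 6 epithelial markers was 3716 to 4423 in control and 2922 to 3292 in HOTAIR-N siRNA libraries. Of these 6, KRT18 fell to 1535 TPM, while KRT7 (log2 fold change 1.05) and CDH1 (1.07) rose and KRT8, KRT19 and EPCAM did not pass. Lung lineage markers summed to 1.5 to 1.97 TPM in control and 2.67 to 3.63 TPM in HOTAIR-N siRNA libraries. Among them NKX2-1, the lineage's transcription factor, rose from 1.26 ± 0.25 to 2.49 ± 0.54 TPM (SD, n = 3 each; log2 fold change 1.02, adjusted p = 1.96e-04, edgeR), and SFTPA1 and SCGB1A1 had no counts. Summed TPM of leukocyte markers was 2.54 to 2.96 and 1.79 to 2.51, nearly all from CD14, with CD3E at 0 and PTPRC at or near 0. Endothelial markers summed to 0.21 to 0.33 and 0.35 to 0.43, and fibroblast markers to 2.10 to 2.31 and 3.44 to 3.86, with VWF and LUM the markers of these lists that rose. The part of these differences in the results was not tested.

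More laminin genes rose than fell with HOTAIR-N siRNA, and integrin genes moved both ways. Of the 37 members, 31 had enough counts to be tested, and of these 15 rose, 7 fell and 9 did not pass (edgeR quasi-likelihood test with Benjamini-Hochberg adjustment over 15072 genes, threshold 0.05). In the background of all genes tested, 28.7% rose and 28.8% fell, 57.5% in all. Among 11 tested laminin genes 7 rose, LAMC3 fell and 3 missed the threshold, with a median log2 fold change of 0.73, where all genes had 0.01. The 20 tested integrin genes divided into 8 that rose, 6 that fell and 6 below the threshold, with a median of -0.17. The median absolute log2 fold change was 0.73 for laminins and 0.73 for integrins, against 0.29 over all genes. The groups did not overlap in CPM for 26 of the 31 tested members, where 62.9% of all genes had no overlap. LAMA1, LAMA4 and ITGB8 rose and ITGB3 fell by 2-fold or more, 4 of 31, where 8.67% of all genes passed both limits.

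**Figure D1:**
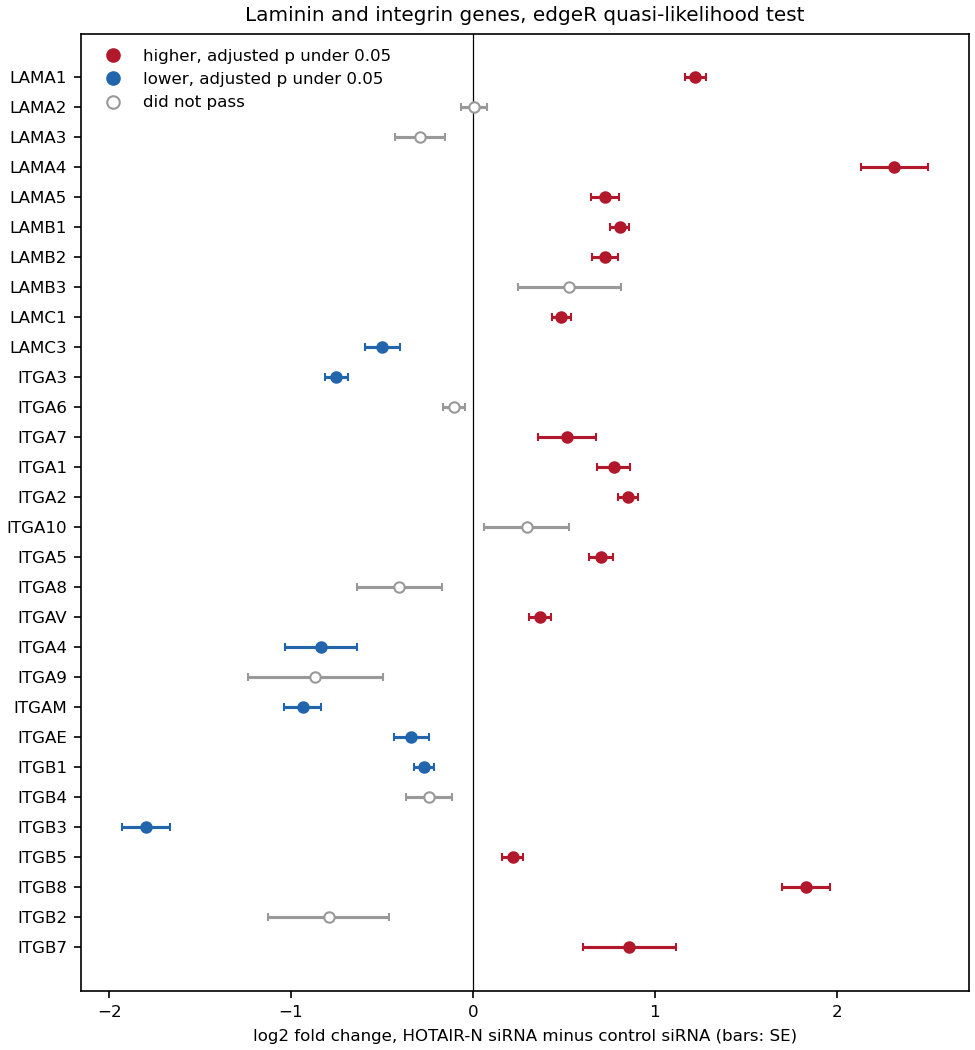
Log2 fold change (HOTAIR-N siRNA minus control siRNA, x axis) of tested laminin and integrin genes (y axis), with SE bars from edgeR. Filled points passed the test (red higher, blue lower) and open points did not. LAMA4 (2.32) and ITGB8 (1.83) lie farthest to the right and ITGB3 (-1.80) farthest to the left.

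The laminin alpha chains, whose end domains bind integrins, set which receptor a laminin engages. LAMA1, the alpha chain of the laminin of early embryos, was at 13.98, 15.29 and 13.64 TPM (RSEM's transcript abundance, a level per length) in the control libraries and at 31.02, 33.28 and 32.97 TPM after HOTAIR-N siRNA. Every HOTAIR-N siRNA library was thus above every control library (log2 fold change 1.22, SE 0.06, adjusted p = 2.54e-10, edgeR). LAMA5, the main alpha chain of adult epithelial basement membranes, rose from 8.50, 7.96 and 7.35 to 11.27, 13.55 and 13.45 TPM (0.73, SE 0.08, adjusted p = 1.73e-06, edgeR). LAMA4, the alpha chain of vessel wall laminins, was low in control cells, at 0.17, 0.29 and 0.19 TPM, and reached 1.19, 0.91 and 1.00 TPM. Its counts were 22, 36 and 26 against 152, 119 and 136, with no overlap. The log2 fold change of 2.32 (SE 0.19, adjusted p = 8.40e-08, edgeR) was the largest of the tested members, at a level that remained low. LAMA2, the alpha chain of muscle basement membranes, was at 3.55, 3.90 and 3.93 against 3.70, 3.62 and 3.77 TPM, overlapping groups with a log2 fold change of 0.00 (adjusted p = 0.960). LAMA3, the alpha chain of the hemidesmosome laminin of skin and airway, was at 0.84, 0.87 and 0.69 against 0.59, 0.86 and 0.75 TPM (log2 fold change -0.29, SE 0.14, adjusted p = 0.0841, edgeR). Its groups overlapped in TPM but not in CPM.

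Of the beta chains, LAMB1 and LAMB2 rose. LAMB1, the most abundant laminin gene in these cells, was at 89.29, 93.87 and 96.29 TPM in control libraries and at 155.69, 161.09 and 158.03 TPM after HOTAIR-N siRNA (log2 fold change 0.81, SE 0.05, adjusted p = 5.97e-09, edgeR). LAMB2, the beta chain that replaces LAMB1 in kidney and synaptic basement membranes, rose from 18.46, 17.17 and 16.70 to 25.91, 27.69 and 30.55 TPM (0.73, SE 0.07, adjusted p = 6.31e-07, edgeR). Neither chain had a library that crossed into the other group. LAMB3, which pairs with LAMA3, had only 14, 17 and 16 counts against 16, 29 and 21, and its log2 fold change of 0.53 (SE 0.28) did not pass (adjusted p = 0.120, edgeR). LAMB4 had 0 or 1 count per library and was not tested.

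Of the gamma chains, LAMC1 rose and LAMC3 fell. LAMC1, the gamma chain of most laminins, rose from 51.56, 56.87 and 51.50 to 70.17, 73.69 and 73.74 TPM (log2 fold change 0.49, SE 0.05, adjusted p = 1.18e-06, edgeR). LAMC3 fell, from 8.52, 8.49 and 7.03 to 4.74, 6.11 and 5.66 TPM (-0.50, SE 0.10, adjusted p = 4.29e-04, edgeR). It was the only tested laminin gene that fell and the only one with the word GACCAAT in its 3' UTR. That word was picked on these same libraries for going with lower expression, so its presence here is no independent evidence.

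**Figure D2:**
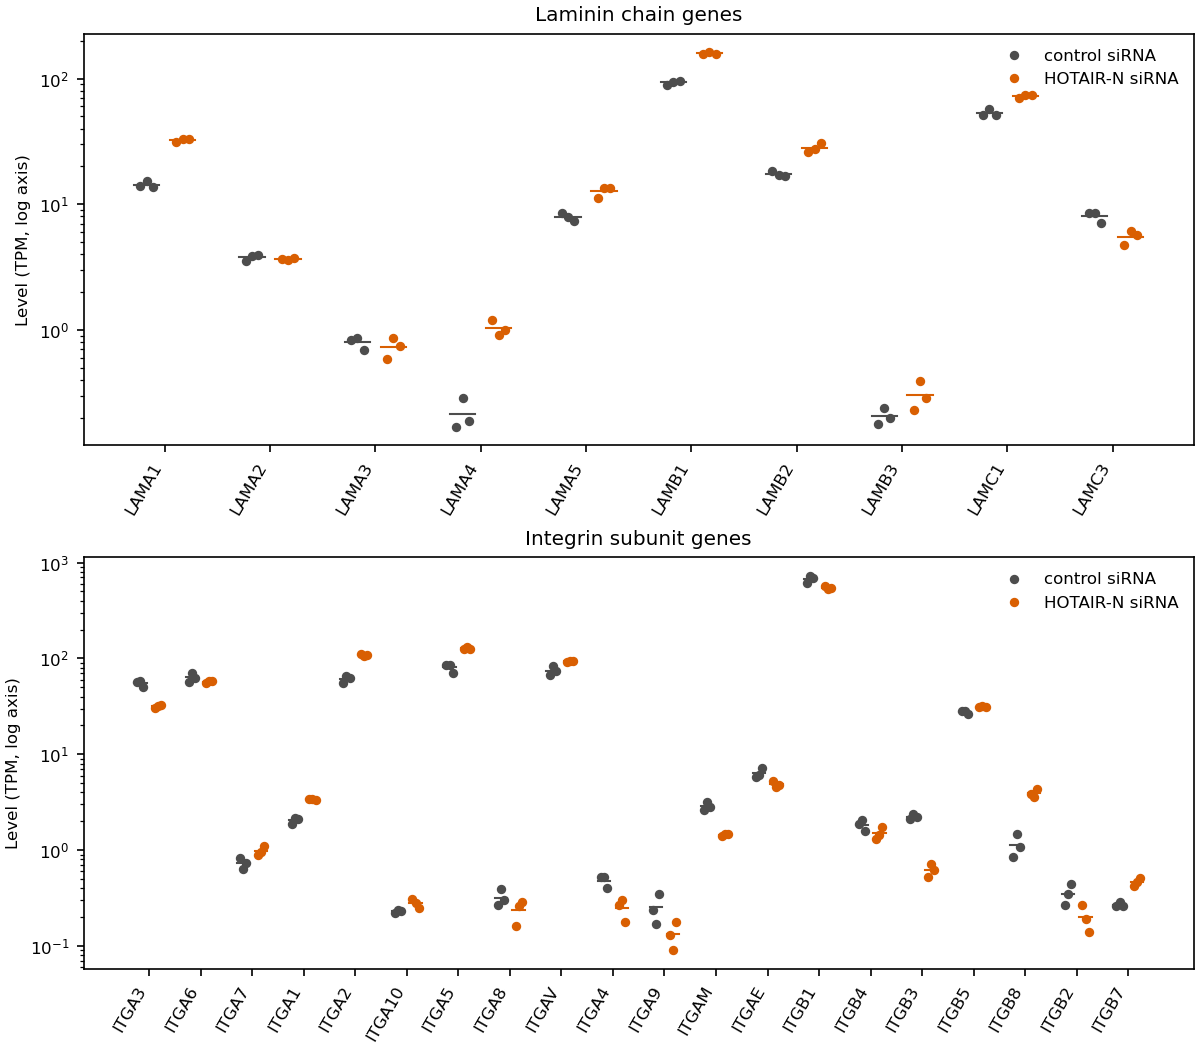
Level of tested members in each library (TPM, log axis), with laminin chains above and integrin subunits below. Points are libraries, 3 per group, and short lines group means. LAMB1 is the highest laminin gene and ITGB1 the highest integrin gene in both groups.

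Because TPM is per length, chains can be set against each other within a library. Summed over the 5 alpha chains, laminin alpha TPM was 27.1 ± 1.26 (SD, n = 3) in control and 50.6 ± 2.49 (SD, n = 3) in HOTAIR-N siRNA libraries. LAMA1 made up 51.7%, 54.0% and 52.9% of that sum in control libraries and 64.9%, 63.7% and 63.5% after HOTAIR-N siRNA. The share of LAMA5 went from 29.3% to 25.1% and that of LAMA2 from 14.0% to 7.31% on average, although the level of LAMA5 rose and that of LAMA2 did not pass a test. Between LAMB1 and LAMB2 the shares were 84.0% and 15.8% in control against 84.8% and 15.02% with HOTAIR-N siRNA (both exact permutation p = 0.5). For each alpha share named, p was 0.1 in a two-sided exact permutation test, the smallest that 3 against 3 libraries allow, and 0.154 after adjustment over the 37 shares, so that these differences could not pass a threshold of 0.05.

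**Figure D3:**
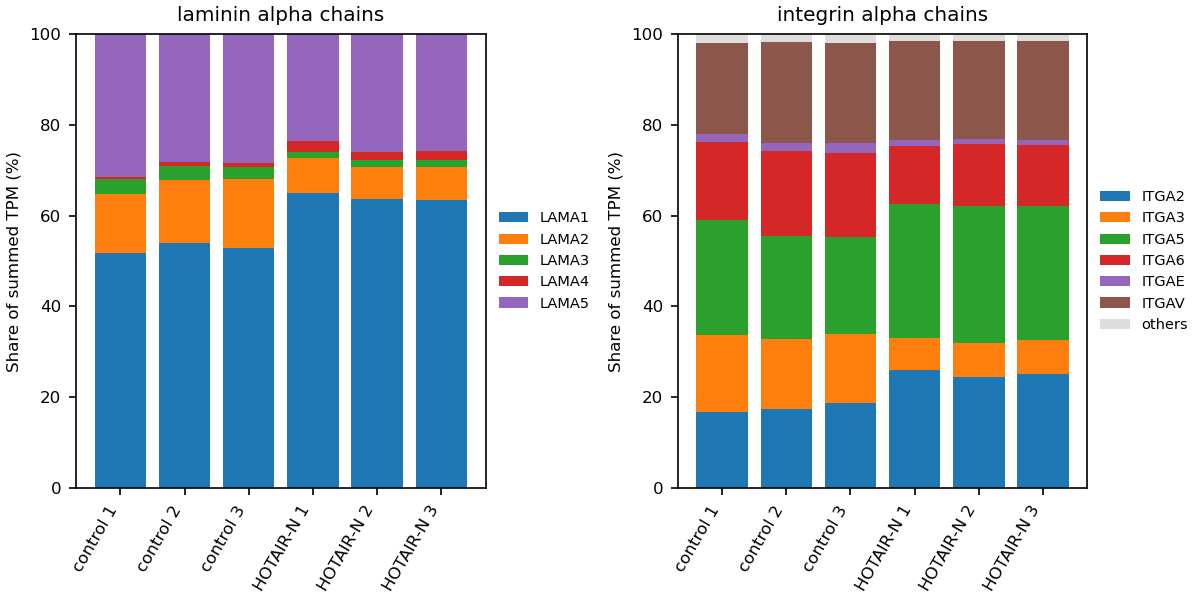
Share of each chain in the summed TPM of its pool (%, y axis) in each of the 6 libraries (x axis), for laminin alpha and integrin alpha chains. Chains under 1% of the pool in both groups are drawn as others. The LAMA1 share is 51.7% to 54.0% in control and 63.5% to 64.9% in HOTAIR-N siRNA libraries.

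Set out as laminin molecules that hold LAMC1, all chains of the LAMA1-LAMB1-LAMC1 and LAMA1-LAMB2-LAMC1 trimers rose. All chains of the LAMA5 and LAMA4 trimers with the same partners rose as well. A trimer with LAMC3 in place of LAMC1 would instead hold a gamma chain that fell. In the LAMA2-LAMB1-LAMC1 trimer the partners rose and LAMA2 did not pass. LAMA3 and LAMB3, which share a trimer, stayed below 1 TPM in every library. Protein or assembled trimers were not measured.

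The genes of the LAMA5, LAMB1 and LAMC1 chains, which rose together, are shown with the 250 bases before and 50 bases after their RefSeq start. Sequences of this kind were matched by symbol for 25 of the 37 members. The GC box, GGGCGG on either strand, is in capitals, and overlapping matches were counted separately.
LAMA5, GRCh38.p14 chr20:62367263-62367562, minus strand: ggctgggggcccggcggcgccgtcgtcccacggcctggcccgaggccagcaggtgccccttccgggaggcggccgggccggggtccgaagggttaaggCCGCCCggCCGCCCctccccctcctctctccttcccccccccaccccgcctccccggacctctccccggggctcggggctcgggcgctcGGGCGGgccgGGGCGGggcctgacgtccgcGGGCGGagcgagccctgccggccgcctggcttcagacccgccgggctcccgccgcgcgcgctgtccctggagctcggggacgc
LAMB1, GRCh38.p14 chr7:108003112-108003411, minus strand: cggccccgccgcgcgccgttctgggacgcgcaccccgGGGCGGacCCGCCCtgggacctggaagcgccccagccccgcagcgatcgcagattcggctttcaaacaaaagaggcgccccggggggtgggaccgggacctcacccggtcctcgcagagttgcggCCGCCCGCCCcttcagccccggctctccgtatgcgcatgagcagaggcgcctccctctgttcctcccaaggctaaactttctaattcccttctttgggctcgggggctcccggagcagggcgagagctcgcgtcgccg
LAMC1, GRCh38.p14 chr1:183023170-183023469, plus strand: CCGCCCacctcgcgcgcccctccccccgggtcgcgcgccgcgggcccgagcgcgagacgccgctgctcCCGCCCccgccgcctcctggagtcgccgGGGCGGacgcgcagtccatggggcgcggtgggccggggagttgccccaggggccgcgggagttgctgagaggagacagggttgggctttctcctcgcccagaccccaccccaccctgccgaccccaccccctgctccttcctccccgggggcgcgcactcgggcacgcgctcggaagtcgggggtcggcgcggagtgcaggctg
These held 5, 4 and 3 GC boxes, and on neither strand the TATA box TATAAA, the CCAAT box, the AP-1 site TGANTCA or the E-box CACGTG. The LAMA5, LAMB1 and LAMC1 windows were 82.7%, 71.0% and 79.0% GC, against a median of 58.3% over all promoters. The GC box was present in 14 of 25 member promoters and in 44.6% of 27305 promoters of the same length. It was in 8 of 12 members that rose, 2 of 4 that fell and 4 of 9 others. The CCAAT box was in 3 of 25 member promoters and 35.7% of all, the TATA box in 1 of 25 and 11.95% of all, the AP-1 site in 2 of 25 and 7.76% of all, and the E-box in 1 of 25 and 7.43% of all. LAMA4, whose log2 fold change was the largest, had none of these words in its window. No binding was measured here.

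Among the alpha subunits classed here as laminin-binding, ITGA3 fell, ITGA6 did not pass and ITGA7, at a low level, rose. ITGA3, the alpha subunit that binds the LAMA3 and LAMA5 laminins, was at 56.14, 58.77 and 49.94 TPM in control libraries and at 30.45, 32.20 and 32.49 TPM after HOTAIR-N siRNA. The highest HOTAIR-N siRNA library was below the lowest control library (log2 fold change -0.75, SE 0.06, adjusted p = 1.13e-07, edgeR). ITGA3 also had the most copies of GACCAAT in its 3' UTR, as shown above, and the part of that word was not tested. ITGA6, the other main epithelial laminin receptor subunit, was at 56.79, 71.11 and 62.07 against 54.79, 58.59 and 57.74 TPM, with overlap (-0.10, SE 0.06, adjusted p = 0.166, edgeR), and passed without control replicate 1 at -0.15 (adjusted p = 0.0132, edgeR). ITGA7, the muscle laminin receptor subunit, was at 0.83, 0.64 and 0.74 against 0.90, 0.96 and 1.10 TPM (0.52, SE 0.16, adjusted p = 0.0129, edgeR). Its call was lost when control replicate 2 (0.42, adjusted p = 0.0573, edgeR) or the third HOTAIR-N siRNA library (0.44, adjusted p = 0.0701, edgeR) was left out, and with DESeq2 (0.51, adjusted p = 0.0562).

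Of their beta partners, ITGB1 fell and ITGB4 did not pass. ITGB1, the beta subunit shared by most matrix receptors, was the most abundant member, at 618.70, 721.21 and 685.97 TPM in control and 563.89, 524.71 and 539.21 TPM in HOTAIR-N siRNA libraries. The groups did not overlap (log2 fold change -0.27, SE 0.05, adjusted p = 6.18e-04, edgeR). Its share of all beta subunit TPM was 95.2% ± 0.36 (SD, n = 3) against 93.4% ± 0.33 (SD, n = 3). ITGB4, the hemidesmosome partner of ITGA6, was at 1.89, 2.04 and 1.59 against 1.32, 1.44 and 1.76 TPM and did not pass (-0.24, SE 0.13, adjusted p = 0.117, edgeR). It passed without control replicate 3 (-0.34, adjusted p = 0.0433, edgeR) and without HOTAIR-N siRNA replicate 3 (-0.37, adjusted p = 0.0378, edgeR). So for the pair ITGA3 and ITGB1 both subunits fell. Of their ligand chains LAMA5 rose and LAMA3 did not pass (log2 fold change -0.29, adjusted p = 0.0841, edgeR). For ITGA6 with ITGB1, ITGA6 did not pass and ITGB1 fell. For ITGA6 with ITGB4 neither passed, and ITGB4 was far lower in TPM than ITGB1.

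**Figure D4:**
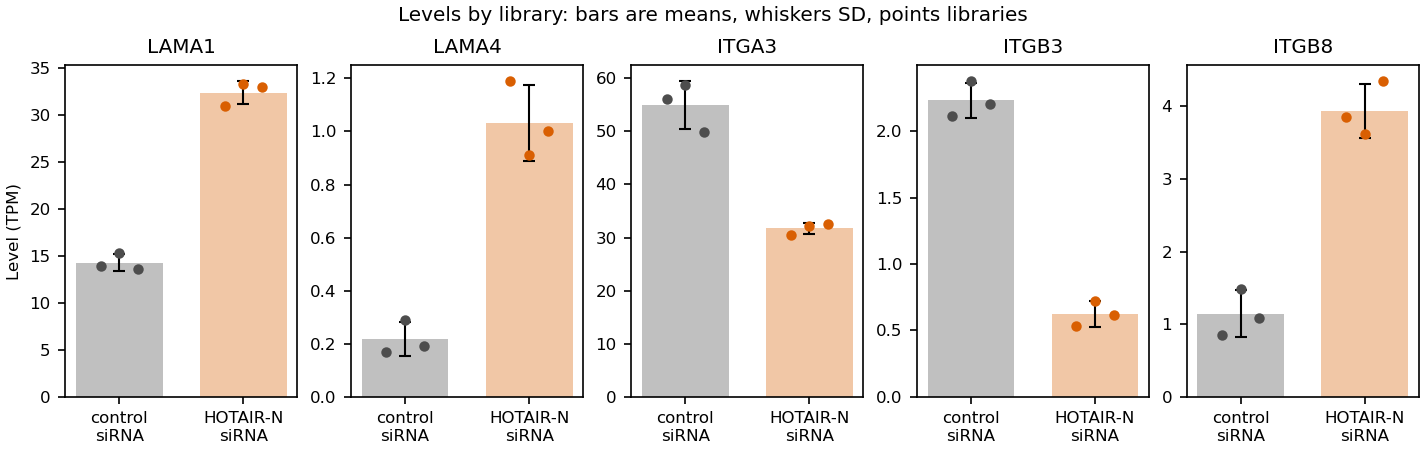
Level (TPM, y axes starting at 0) of LAMA1, LAMA4, ITGA3, ITGB3 and ITGB8 by group. Bars are means, whiskers SD and points the 3 libraries of each group. In all 5 genes the groups do not overlap, for example 2.12 to 2.38 TPM against 0.53 to 0.72 TPM for ITGB3.

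The collagen-binding alpha subunits, which pair with ITGB1, included ITGA1 and ITGA2, which rose. ITGA2 was at 55.92, 66.08 and 62.73 TPM in control and 110.53, 105.40 and 107.75 TPM in HOTAIR-N siRNA libraries (log2 fold change 0.85, SE 0.06, adjusted p = 1.06e-08, edgeR). ITGA1 rose from 1.88, 2.15 and 2.10 to 3.43, 3.39 and 3.35 TPM (0.77, SE 0.09, adjusted p = 4.23e-06, edgeR). Both had every HOTAIR-N siRNA library above every control library. ITGA10 had 20 to 27 counts per library and did not pass (0.30, adjusted p = 0.298, edgeR), and ITGA11 had 0 to 2 counts and was not tested. Of their ligands, COL1A1 rose from 3.95 ± 0.23 to 12.1 ± 0.39 TPM (SD, n = 3 each).

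ITGA5, the fibronectin receptor subunit, rose from 84.96, 85.51 and 71.04 to 124.77, 130.44 and 126.69 TPM (log2 fold change 0.70, SE 0.07, adjusted p = 4.16e-07, edgeR). It had the highest mean TPM of the member alpha subunits in both groups. In control cells the mean was 80.5 TPM against 74.7 for ITGAV, which was higher in control replicate 3 (73.08 TPM). The ITGA5 ligand FN1 had a log2 fold change of -0.72 (adjusted p = 8.05e-06, edgeR), in the opposite direction. ITGA8, another subunit for ligands with the RGD motif, had 34, 47 and 39 counts against 19, 32 and 37 and did not pass (-0.40, SE 0.24, adjusted p = 0.155, edgeR). As shares of all alpha subunit TPM, ITGA2 went from 17.7% to 25.2%, ITGA5 from 23.1% to 29.7%, ITGA3 from 15.8% to 7.39% and ITGA6 from 18.2% to 13.3% on average (each exact permutation p = 0.1, the smallest possible).

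The beta subunits that pair with ITGAV included ITGB3 and ITGB8, with the largest log2 fold changes of the tested integrins. ITGAV itself rose from 66.94, 84.10 and 73.08 to 92.86, 93.50 and 93.92 TPM (log2 fold change 0.37, SE 0.06, adjusted p = 1.00e-04, edgeR). ITGB3, the partner for vitronectin and osteopontin, fell from 2.12, 2.38 and 2.21 to 0.53, 0.72 and 0.62 TPM. Its counts were 184, 197 and 197 against 44, 62 and 55 (-1.80, SE 0.13, adjusted p = 3.51e-08, edgeR). The osteopontin gene SPP1 rose from a mean of 0.56 to 1.84 TPM (1.78, adjusted p = 1.02e-05, edgeR). The vitronectin gene VTN rose from 0.51 to 0.87 TPM with overlap in CPM (0.80, adjusted p = 0.0423, edgeR). SPP1 and VTN were named after their values were seen, and both were low. Of the 22 tested genes on the list of other integrin ligands, 11 rose and 6 fell. The more abundant FN1 (-0.72) and THBS1 (-0.76) were among those that fell. ITGB8, the partner that binds latent TGF-beta, rose from 0.85, 1.49 and 1.09 to 3.85, 3.62 and 4.35 TPM, with 135, 225 and 177 counts against 588, 564 and 707 (1.83, SE 0.13, adjusted p = 2.63e-08, edgeR). In each control library ITGB3 was thus above ITGB8 in TPM, and in each HOTAIR-N siRNA library ITGB8 was above ITGB3. For the ligand of ITGB8, the TGF-beta gene TGFB1 did not pass (0.11, adjusted p = 0.220, edgeR). LTBP1, a binding protein of latent TGF-beta, fell (-0.88, adjusted p = 1.27e-06, edgeR). ITGB5, the most abundant ITGAV-specific partner, rose from 28.35, 28.55 and 26.52 to 30.87, 32.23 and 30.91 TPM (0.22, SE 0.06, adjusted p = 0.00558, edgeR). ITGB6 had 2 to 8 counts per library and was not tested. ITGA2B, the other partner of ITGB3, was at 2.95 ± 0.07 against 2.6 ± 0.13 TPM (SD, n = 3 each) and did not pass (-0.14, adjusted p = 0.252, edgeR).

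The subunits known from leukocytes were low in these cells. ITGAE, the E-cadherin receptor subunit of intraepithelial lymphocytes, was the highest of them, at 5.80, 6.09 and 7.12 against 5.23, 4.59 and 4.79 TPM (log2 fold change -0.34, SE 0.10, adjusted p = 0.00707, edgeR). ITGAM, the alpha subunit of the myeloid complement receptor, fell from 2.64, 3.15 and 2.79 to 1.41, 1.47 and 1.46 TPM (-0.94, SE 0.10, adjusted p = 1.88e-06, edgeR). Its beta partner ITGB2 had 14 to 23 counts in control libraries and 7 to 13 in the others, and did not pass (-0.79, SE 0.33, adjusted p = 0.0535, edgeR). Leaving out control replicate 1 brought ITGB2 to -0.93 (adjusted p = 0.0389, edgeR) and leaving out the first HOTAIR-N siRNA library to -1.05 (adjusted p = 0.0332, edgeR), and limma-voom gave -0.80 (adjusted p = 0.0450). ITGAL, ITGAD and ITGAX had 0 to 2 counts per library and were not tested.

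ITGA4, a receptor subunit for VCAM1 and fibronectin, fell from 0.52, 0.52 and 0.40 to 0.27, 0.30 and 0.18 TPM (log2 fold change -0.84, SE 0.20, adjusted p = 0.00234, edgeR). ITGA9, its closest relative, had 6 to 25 counts and did not pass (-0.87, SE 0.37, adjusted p = 0.0577, edgeR), but did without control replicate 2 (-1.11, adjusted p = 0.0229), without HOTAIR-N siRNA replicate 3 (-1.14, adjusted p = 0.0415) and with the replicate number as a block (-0.87, adjusted p = 0.0397). ITGB7, a partner of ITGA4 and ITGAE, rose from 0.26, 0.29 and 0.26 to 0.42, 0.47 and 0.51 TPM, with 13 counts in each control library and 20, 23 and 26 in the others (0.86, SE 0.26, adjusted p = 0.0100, edgeR). It did not pass with DESeq2 (adjusted p = 0.0779). In GENCODE release 29 its exons share 1474 bases with ZNF740 on the opposite strand, and without a stated strand setting for counting, reads of these genes cannot be told apart. In all, 20 of the 37 members share exon bases with another annotated gene, mostly an antisense RNA. Some overlaps are on the same strand, where strand cannot separate the reads. Among these, ITGA1 shares 475 bases with the protein-coding gene PELO, and ITGB3 shares 2266 with the protein-coding gene AC068234.1.

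The deposited isoform tables held 89 isoforms of the members, and 47 were tested. Of these 12 rose, 3 fell and 32 did not pass, where 9.39% of all 32627 tested isoforms rose and 10.1% fell. Those that rose included the main isoforms of ITGA1, ITGA2, ITGA5, ITGAV, ITGB5, ITGB8, LAMA1, LAMA5, LAMB1, LAMB2 and LAMC1, and the 3 that fell were those of ITGA3, ITGB3 and LAMC3. For 14 members the tables held only 1 isoform, whose counts are those of the gene. Among the isoforms just named, all but those of ITGA2, ITGAV and ITGB5 are of this kind. Their direction therefore repeats the gene result and adds nothing to it. The isoforms of ITGA2, ITGAV and ITGB5 moved in the direction of their genes. ITGB5 NM_001354765 (log2 fold change 0.23, adjusted p = 0.0349) and LAMC3 NM_006059 (-0.49, adjusted p = 0.0491, edgeR) were close to the threshold. ITGB5 NM_001354765 did not pass without any single control library or without HOTAIR-N siRNA replicate 1 or 2 (adjusted p from 0.0767 to 0.118), and LAMC3 NM_006059 did not without any single library (adjusted p from 0.0518 to 0.132).

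The ITGA6, ITGB1 and LAMA4 isoforms named next were chosen after their values were seen. Of ITGA6, which has splice forms with different cytoplasmic tails, NM_000210 made up 71.1% ± 3.21 (SD, n = 3) in control and 76.9% ± 2.64 (SD, n = 3) in HOTAIR-N siRNA libraries, and NM_001079818 28.9% ± 3.21 and 22.7% ± 3.40. Of ITGB1, NM_002211 made up 48.8% ± 6.45 and 53.3% ± 5.77, and NM_133376 51.1% ± 6.44 and 46.6% ± 5.74 (SD, n = 3 each). For LAMA4 the division between isoforms varied from library to library, with an SD of 51.1 percentage points for NM_002290 in control. Of 11 members with at least 2 tested isoforms, 0 passed the test of isoform use (edgeR diffSpliceDGE with Simes p, smallest unadjusted p = 0.113 for ITGA6, so 0 also at an unadjusted 0.05), where 3.10% of all 7523 such genes passed. With only 11 members, 0 cannot be told apart from that share. On simulated data this test made too many false calls when isoforms differed in spread.

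Around the members, 90 other genes of the pathway were tested, and 27 rose and 31 fell. Of all genes tested, 28.7% rose and 28.8% fell, and the lists below are to be read beside these shares. Of 15 basement membrane partners, 14 were tested and 6 rose and 3 fell, with a median log2 fold change of 0.32. AGRN, the proteoglycan agrin that binds laminin, rose from 37.1 ± 3.7 to 64.9 ± 7.9 TPM (SD, n = 3 each). COL4A1 and COL4A2, chains of the type IV collagen network, rose by 0.83 and 0.99 on the log2 scale, and COL4A6 fell by 0.51. Of 26 other integrin ligands, 22 were tested and 11 rose and 6 fell, with TNC at 0.76, CDH1, the ITGAE ligand E-cadherin, at 1.07, and THBS1 at -0.76. Of 17 other laminin receptors and membrane partners, 16 were tested and 5 rose and 4 fell. SDC4 (0.24) and the laminin receptor BCAM (0.44) rose, and CD9 (-0.42) and SDC1 (-0.39) fell. Of 5 hemidesmosome genes only DST (0.10) and PLEC (0.21) were tested, and neither passed, though PLEC did without HOTAIR-N siRNA replicate 1 (0.31, adjusted p = 0.0377, edgeR).

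Of 38 genes of integrin activation and the adhesion complex, 36 were tested, and 5 rose and 18 fell, with a median of -0.17. Over all genes tested, 28.7% rose and 28.8% fell. Without control replicate 3 or HOTAIR-N siRNA replicate 3 the number that rose was 3. PTK2, the focal adhesion kinase, rose from 42.4 ± 2.4 to 77.8 ± 1.3 TPM (SD, n = 3 each; log2 fold change 0.93, SE 0.05). CAV1, the caveolar coat protein, fell from 285 ± 22 to 105.2 ± 2.2 TPM (SD, n = 3 each; -1.39, SE 0.05). PARVA and RSU1, which belong to the complex around the integrin-linked kinase, had log2 fold changes of -0.70 and -0.64. ILK, that kinase itself, named after its value was seen, rose by 0.56 (adjusted p = 7.96e-07, edgeR).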

How the data were processed

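Expression was measured by RNA-seq of 6 H23 libraries (3 control siRNA, 3 HOTAIR-N siRNA) made with a stranded, ribosomal RNA-depleted total RNA kit, per the labels' protocols. STAR 2.6.0c, RSEM 1.3.0 and hg19 are named in the submitters' processing notes. The authors deposited expected counts, which are RSEM estimates per gene or isoform, and TPM, which the authors scaled by length and library, per the file headers. No source used here gives the annotation release or strand setting.

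Expected counts were rounded and tested in edgeR 4.0.16 (R 4.3.3) with filterByExpr, TMM scaling and the robust quasi-likelihood test over all genes, or all isoforms, with Benjamini-Hochberg adjustment. SE is the log2 fold change divided by the square root of F. Alternatives used other scalings and filters, DESeq2 1.42.0, limma-voom (limma 3.58.1), a fold of 1.5, a replicate block and each library left out. Replicate numbers were not treated as pairs. Members and lists were chosen with earlier results of these data known. Members are reported except for a few items that are not reported here, and from each other list up to 4 genes with the smallest p. FN1, SPP1, VTN, TGFB1, LTBP1 and ILK were added after their values were seen. Steps were tested on simulated data, where the isoform tests found few of the changes and the isoform-use test made too many false calls when isoforms differed in spread. Promoters are from RefSeq, GRCh38.p14, another build than hg19. P-values measure the spread between transfections of this cell line.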

Additional observations from a re-analysis of the deposited data

How the results depend on the processing

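Settings tried were RLE, upper-quartile or no scaling, no filter, a filter at 1 CPM, DESeq2, limma-voom, the replicate block and each library left out. Under these, 13 to 15 members rose and 7 to 9 fell, of 26 to 37 tested. The share of all genes that passed ran from 42.3% without a filter to 61.1% with the filter at 1 CPM. Against a fold of 1.5, a stricter question, 5 rose and 3 fell, and of the other pathway genes 9 rose and 7 fell, where 11.3% of all 15072 genes passed. These 8 members were among the 22. With the replicate block 15 members rose and 8 fell, ITGA9 being the addition, and no other gene-level call of a member changed. Isoforms that did not pass under the block included NM_181501 (ITGA1), NM_001354765 (ITGB5), NM_005560 (LAMA5) and NM_006059 (LAMC3). Deviations of same-numbered libraries correlated at -0.12, 0.02 and -0.04, so the numbers were not taken as pairs. The near-zero log2 fold change of LAMA2 ranged from -0.0197 to 0.0354 with a library left out. The ITGAV share of alpha subunit TPM, 0.37 percentage points higher with HOTAIR-N siRNA, was -0.15 on counts without length and -0.29 to 0.76 with a library left out. The cause was not tested. Members under about 25 counts per library (ITGA9, ITGA10, LAMB3, ITGB2, ITGB7) have wide errors, and the 6 untested members had 0 to 8.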
